A study of Gallus gallus with 24 samples.

Results

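The genes described here write, remove or read chemical marks on histones and DNA, or move nucleosomes along DNA. They were chosen by name alone, from feature IDs that begin with the family names KDM, SETD, HDAC, SIRT, KAT, CHD, SMARC, ARID, DNMT, TET, BRD, PRDM, PRMT, MLL, NSD1 or EZH, and 76 of the 17934 features of the count table met that rule. Genes of these families that the table lists under other IDs, among them TET1, KAT6A and SIRT1, are not among the 76. Expression was measured by RNA-Seq in abdominal fat of cockerels from a fat line (FL) and a lean line (LL) of chickens, which had been bred in opposite directions for the weight of abdominal fat. Each line was represented by 4 birds at 7 wk of age, no treatment is named in the labels, and the library of each bird was sequenced in 3 runs. The comparison of the lines asks which transcripts go with the inherited difference in fatness, and since the lines were bred apart, fatness cannot be told apart from other inherited differences between them.

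Histone tails carry acetyl and methyl groups that open or close chromatin to transcription. Acetyltransferases and deacetylases (HDAC proteins and sirtuins) set the first, while lysine and arginine methyltransferases and KDM demethylases set the second, and bromodomain (BRD) proteins read acetylated lysines. DNMT and TET enzymes add and oxidise methyl groups on cytosine. The ATPases of the SMARC and CHD families reposition nucleosomes, some of the SMARC family with the help of ARID subunits. In mouse preadipocytes several of these proteins act with PPARG and the C/EBP factors during fat cell differentiation.

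Counts of the 3 runs of a bird were summed and are given as CPM (counts scaled to the total of the bird with TMM factors, as edgeR does), with the mean ± SD of 4 birds. Totals per bird ranged from 4299772 to 10878211 counts in the FL and from 5548867 to 12876999 in the LL. Transcripts of skeletal muscle set 1 library apart, since the summed level of 6 muscle marker genes was 17130 CPM in FL replicate 4 and 74.6 to 123 CPM in the other 7 birds. The tissue label was met by the adipocyte markers, whose sum was 15332 to 18380 CPM in the FL and 13943 to 16820 CPM in the LL. In whole tissue, fewer cells of a type and less RNA per cell cannot be told apart.

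Of the 76 genes, 74 had enough counts to be tested. PRDM12 had no read in any bird, which allows up to 3 counts per bird, and PRDM6 had 64 counts over all 8 birds with at most 21 in 1 bird. None of the 74 was a differentially expressed (DE) gene, defined as an adjusted p of at most 0.05 in the quasi-likelihood test of edgeR and a fold change of at least 1.2, whereas 41 of all 11187 genes tested were (0.366%). DESeq2 also called 0 of these genes, against 2.02% of all genes in that fit. It gave MLL5, MLL3 and ARID1B adjusted p values of 0.077, 0.081 and 0.091. At an unadjusted p under 0.05 edgeR gave 11 of the 74. Of these 11, 10 had the higher mean in the LL (13.5% of 74, against 6.62% of all genes tested) and 1 in the FL (1.35%, against 6.49%). The lowest adjusted p of edgeR was 0.192, for ARID1B. When the 24 runs were entered as if each were a bird, 11 of 69 genes were called (15.9%, against 14.02% of all genes in that fit), and those calls count each library 3 times.

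The levels of most of the chromatin genes were a little higher in the LL. The fitted level was higher in the LL for 50 of the 74 (67.6%, against 49.5% of all genes tested), and the median log2 fold change (FL/LL, so that negative values are higher in the LL) was -0.10, against 0.0021 for all genes. All 4 LL birds lay above all 4 FL birds for 9 of the genes (12.2%, against 4.34% of all genes), among them ARID1B, ARID2, BRD1, CHD9, KDM6A, MLL3, MLL5 and MLLT10, and the reverse held for HDAC9 alone (1.35%, against 3.76%). Without TMM factors, the share of all counts that fell on the 76 genes was 0.453 to 0.480% in the FL and 0.497 to 0.545% in the LL. In the fit without these factors 59.4% of all genes tested were higher in the LL. The differences of the chromatin genes were small. For 72 of 74 genes the 95% interval of the fold change lay within 2-fold either way. The exceptions were PRMT8 and PRDM9, both with few counts.

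**Figure D1:**
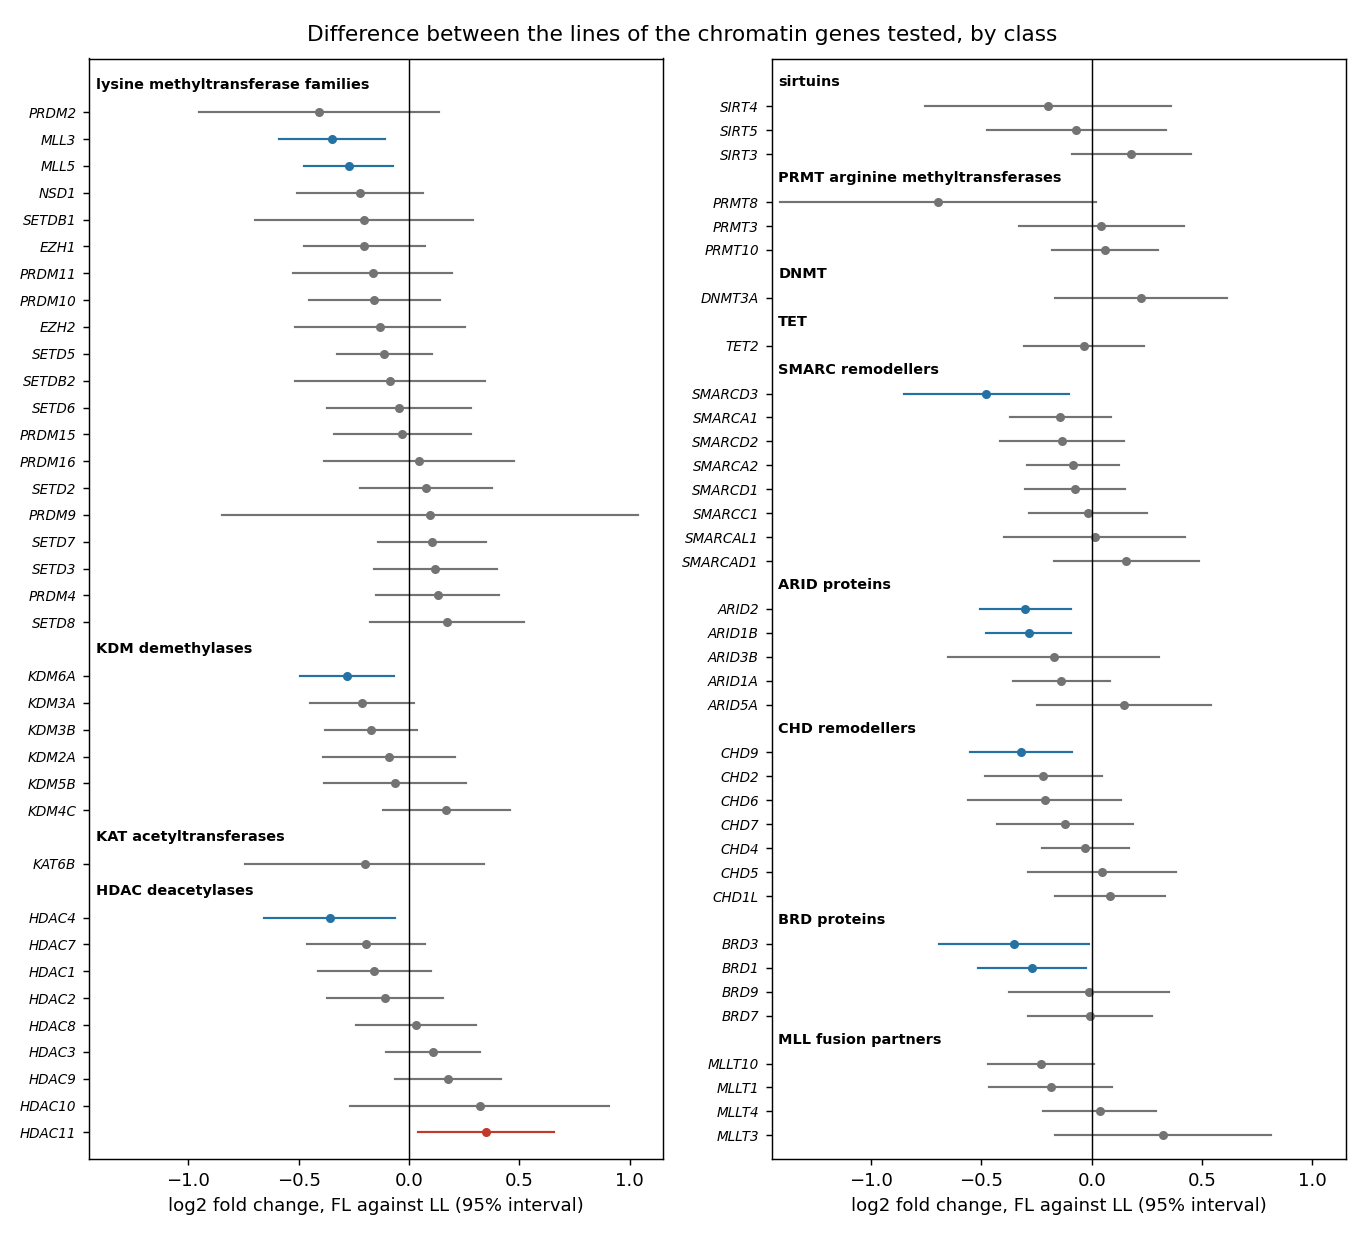
Log2 fold change (FL/LL, horizontal axis) of 72 of the chromatin genes tested, by class, where points are edgeR estimates from 4 birds per line and lines their 95% intervals. Blue marks the 10 genes with an unadjusted p under 0.05 and the higher mean in the LL, red the 1 with the higher mean in the FL, and grey the others; 48 of 72 points lie left of 0.

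Taken bird by bird, the same counts gave the tilt towards the LL in another form, which adds no independent support. For each bird the median over the 74 genes of its log2 deviation from the mean of all birds was -0.09, -0.05, -0.01 and -0.02 in FL replicates 1 to 4, and 0.01, 0.05, 0.13 and 0.00 in LL replicates 1 to 4. The lines did not overlap, but the gap was narrow, between FL replicate 3 at -0.015 and LL replicate 4 at 0.0015. The lowest and highest birds were FL replicate 1 and LL replicate 3. Without LL replicate 3 the median log2 fold change of the chromatin genes was -0.07. Over all genes tested the same medians ran from -0.01 to 0.01, which TMM scaling keeps near 0. For ARID proteins (5 genes) and KDM demethylases (6 genes) the median of every LL bird was above that of every FL bird. The medians of the lines overlapped for the CHD, BRD, SMARC and lysine methyltransferase classes. Differences between classes were not tested. HDAC medians ran from -0.03 to 0.11 in the FL and from -0.06 to -0.01 in the LL.

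**Figure D2:**
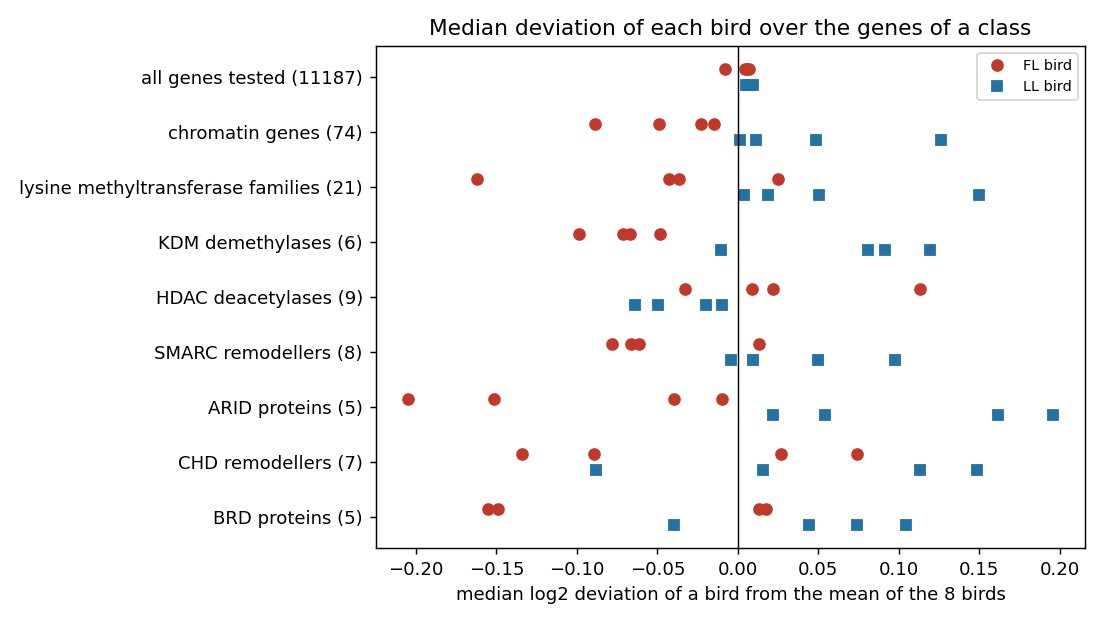
Median log2 deviation of each bird from the mean of the 8 birds (horizontal axis), over all genes tested, over the 74 chromatin genes and over 7 of their classes, with the number of genes in brackets. Red circles are FL birds and blue squares LL birds; over the chromatin genes the FL birds lie between -0.09 and -0.01 and the LL birds between 0.00 and 0.13.

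The gene with the strongest statistics among the histone methyltransferases was MLL3 (KMT2C; chr2:6484629-6654248 of build 2.1), which methylates lysine 4 of histone H3 at enhancers and in the mouse takes part in adipogenesis. Its level was 227, 269.8, 270.3 and 274 CPM in FL replicates 1 to 4 and 331, 314, 377 and 301 CPM in LL replicates 1 to 4. Every LL bird was above every FL bird, and FL replicate 1 lay well under the other 3 FL birds. The means were 260.1 ± 22.5 and 331 ± 33.1 CPM, a log2 fold change of -0.35 ± 0.11 (SE) with an edgeR adjusted p of 0.197. MLL5 (KMT2E; chr1:14741251-14794089), a SET domain protein that binds methylated lysine 4, had 246, 252, 232 and 272 CPM in the FL birds and 299.6, 306, 316 and 289 CPM in the LL birds. Again the lines did not overlap, with a log2 fold change of -0.27 ± 0.09 (SE) and an edgeR adjusted p of 0.222.

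All 5 genes of the MLL, NSD1 and EZH names had the higher mean in the LL, with a median log2 fold change of -0.22. NSD1, a methyltransferase of H3 lysine 36, had a value of -0.22 ± 0.13 (SE). EZH1 and EZH2, the alternative catalytic subunits of Polycomb repressive complex 2, stood at -0.20 ± 0.12 and -0.13 ± 0.17. None of these 3 had an unadjusted p under 0.05. The 8 SETD and SETDB genes were divided evenly, 4 higher in each line, with a median of 0.01 and a range from -0.20 for SETDB1 to 0.17 for SETD8 (KMT5A, the monomethylase of H4 lysine 20). SETD8 had 15.4, 13.7, 13.8 and 12.8 CPM in the FL and 15.2, 10.1, 11.8 and 12.3 CPM in the LL, which overlap. SETD2, the trimethylase of H3 lysine 36, was at 235 ± 25.9 CPM in the FL and 223 ± 38.4 CPM in the LL. SETD3, SETD5, SETD6, SETD7 and SETDB2 lay between -0.11 and 0.12 on the log2 scale.

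PRDM proteins are zinc finger proteins with a SET-like domain, and 8 of the 10 in the table could be tested. Their median log2 fold change was -0.09, with 5 higher in the LL and 3 in the FL. PRDM2 (RIZ), a methyltransferase of H3 lysine 9, had the largest estimate of the lysine methyltransferases, with 2.18, 1.601, 2.71 and 2.43 CPM in the FL and 3.13, 2.48, 3.08 and 3.31 CPM in the LL. FL replicate 3 lay above LL replicate 2, and these levels rest on 7 to 39 counts per bird. The log2 fold change was -0.41 ± 0.25 (SE), with an edgeR adjusted p of 0.522. All 57275 bases of the deposited region of PRDM2 lie within that of LRRC38, a feature with 188 counts over all birds. PRDM16, which in the mouse directs brown fat differentiation, had 17.9 to 22.2 CPM in the FL and 14.8 to 24.98 CPM in the LL, a log2 fold change of 0.04 ± 0.19 (SE). The FL range lay inside that of the LL. PRDM4, PRDM9, PRDM10, PRDM11 and PRDM15 had log2 fold changes from -0.16 to 0.13.

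Among the 6 KDM demethylases, 5 had the higher mean in the LL and the median log2 fold change was -0.13. KDM6A (UTX; chr1:114402720-114551111) removes methyl groups from H3 lysine 27 and belongs to the same kind of complex as MLL3. Its level was 104, 123, 112 and 107 CPM in FL replicates 1 to 4 and 148, 137, 131 and 124 CPM in LL replicates 1 to 4. The lowest LL bird was just above the highest FL bird. The log2 fold change was -0.28 ± 0.10 (SE) and the edgeR adjusted p 0.237. KDM3A and KDM3B, demethylases of H3 lysine 9, stood at -0.21 ± 0.11 and -0.17 ± 0.09. KDM5B, which acts on H3 lysine 4, had 104 to 149 CPM in the FL and 109.6 to 159 CPM in the LL, so that the lines almost coincided. KDM4C, which acts on H3 lysines 9 and 36, was the only KDM gene with the higher mean in the FL, with 15.8, 13.7, 14.1 and 13.4 CPM there against 13.4, 12.8, 12.7 and 11.9 CPM in the LL. These ranges met at 13.4 CPM, and the log2 fold change was 0.17 ± 0.13 (SE), and edgeR gave an adjusted p of 0.629. KDM2A had a log2 fold change of -0.09.

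The HDAC family was mixed, with 4 of 9 genes higher in the LL and a median log2 fold change of 0.03. HDAC4 (chr7:6177477-6318572), a class IIa deacetylase that shuttles between nucleus and cytoplasm, had 33.4, 48.0, 44.4 and 45.8 CPM in the FL birds and 54.0, 56.5, 61.4 and 47.5 CPM in the LL birds. The overlap was between FL replicate 2 and LL replicate 4 only, and the log2 fold change was -0.36 ± 0.13 (SE), and edgeR gave an adjusted p of 0.275. HDAC11 (chr12:5907917-5933146), the single class IV member, which in the mouse restrains thermogenic genes in fat, was the only chromatin gene with an unadjusted p under 0.05 and the higher mean in the FL. It had 19.4, 22.4, 21.0 and 21.6 CPM in the FL and 19.5, 17.4, 13.6 and 16.0 CPM in the LL. LL replicate 1 was level with FL replicate 1, and all other LL birds were below every FL bird. Its log2 fold change was 0.35 ± 0.14 (SE), and edgeR gave an adjusted p of 0.310.

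HDAC9, a class IIa member that in the mouse holds back preadipocyte differentiation, had 21.3, 20.6, 20.1 and 21.5 CPM in the FL and 17.8, 17.7, 18.6 and 19.6 CPM in the LL. The lines did not overlap, and the spread within a line was the smallest of all 74 genes (a coefficient of variation of 4.03%). The log2 fold change was nevertheless small, 0.18 ± 0.11 (SE), and edgeR gave an adjusted p of 0.525. HDAC7, the third class IIa gene, had 183 to 249 CPM in the FL and 225 to 284 CPM in the LL, a log2 fold change of -0.20 ± 0.12 (SE). Class IIa thus held estimates in both directions, and the difference between its genes was not tested. Of the class I genes, HDAC1 and HDAC2 stood at -0.16 and -0.11 and HDAC3 and HDAC8 at 0.11 and 0.03. HDAC3, the catalytic unit of the NCOR corepressors, had 44.4 to 51.5 CPM in the FL and 42.7 to 46.4 CPM in the LL, and its deposited region overlaps that of a feature with 4238 counts. HDAC10 had 15.6 to 21.0 CPM in the FL and 6.83, 17.9, 18.8 and 15.5 CPM in the LL. LL replicate 1 was far below all other birds, and the log2 fold change of HDAC10 was 0.32 ± 0.27 (SE) with that bird and 0.09 without it.

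**Figure D3:**
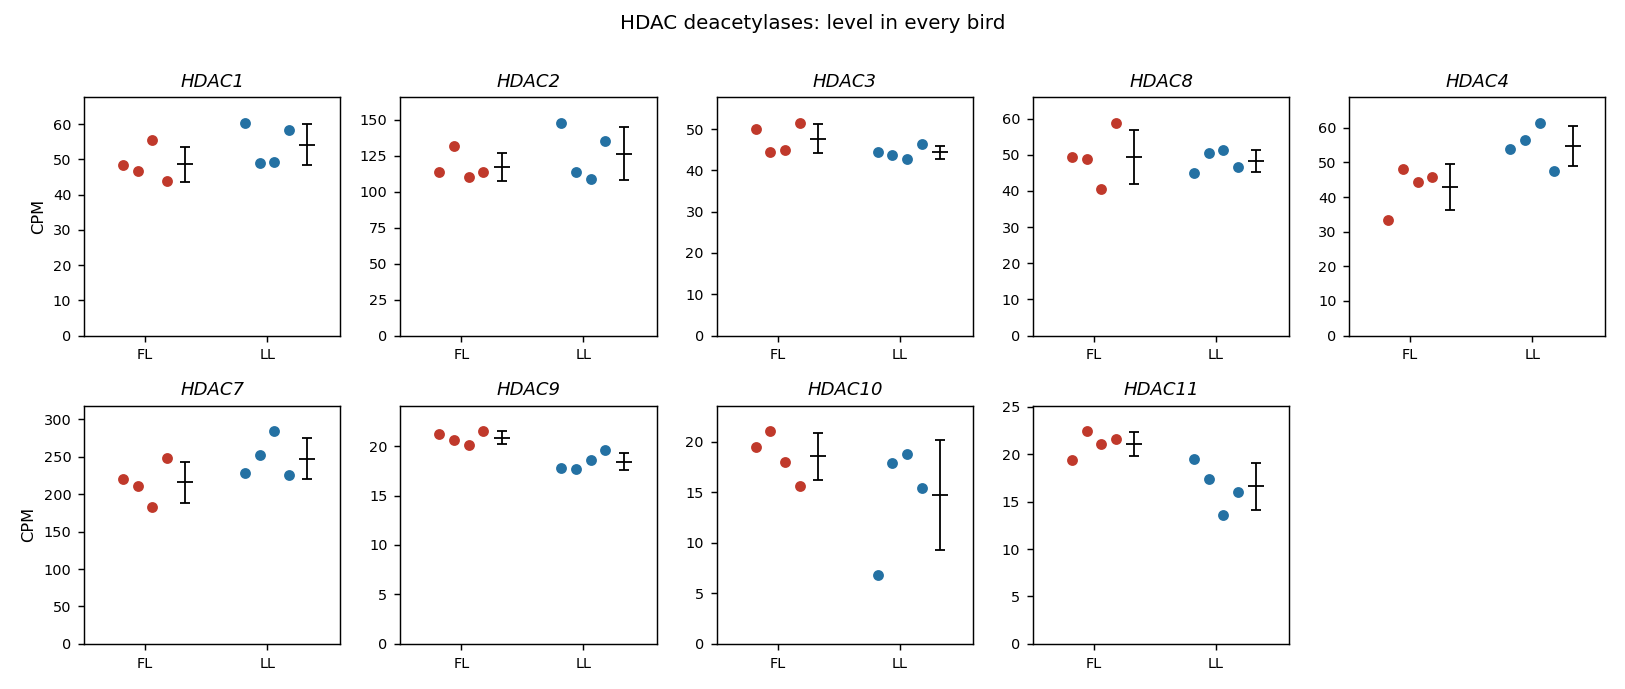
Level of the 9 HDAC genes in every bird (CPM, vertical axes from 0), FL birds in red and LL birds in blue, with the mean and SD of 4 birds in black beside them. HDAC4 lies higher in the LL with an overlap of 1 bird from each line, and HDAC9 lies higher in the FL without overlap. HDAC11 lies higher in the FL with LL replicate 1 level with FL replicate 1, and HDAC10 has 1 low LL bird at 6.83 CPM.

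Sirtuins are NAD-dependent deacylases, and the 3 in the table, SIRT3, SIRT4 and SIRT5, act mainly in mitochondria. SIRT3 had 37.5, 39.1, 47.9 and 43.2 CPM in the FL and 34.6, 43.6, 35.2 and 35.1 CPM in the LL. All LL birds but 1 were below every FL bird, and LL replicate 2 was among the higher FL birds, and the log2 fold change was 0.18 ± 0.12 (SE), and edgeR gave an adjusted p of 0.578. SIRT4 had 4.07 to 7.91 CPM in the FL and 5.69 to 9.01 CPM in the LL, and SIRT5 10.7 to 16.5 and 11.5 to 17.2 CPM. KAT6B, an acetyltransferase of histone H3 and the only KAT gene, had 10.3 to 20.8 CPM in the FL and 12.4 to 22.0 CPM in the LL. The line ranges of these 3 genes overlapped widely.

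The arginine methyltransferase PRMT8 had the largest difference of all 74 genes in estimate, with a wide interval. It had 2.40, 1.601, 1.76 and 4.16 CPM in the FL and 5.13, 3.01, 4.19 and 4.28 CPM in the LL. Only FL replicate 4, the library with muscle transcripts, reached the levels of the LL. These levels rest on 7 to 53 counts per bird. The log2 fold change was -0.70 ± 0.32 (SE), and edgeR gave an adjusted p of 0.392. Without FL replicate 4 the log2 fold change was -1.08 (edgeR adjusted p = 0.135), the largest difference among the 8 fits that left out 1 bird. Those fits ran from -1.08 to -0.56, with edgeR adjusted p values of 0.135 to 0.586. The part of muscle transcripts in the values of PRMT8 was not tested. PRMT10 and PRMT3 stood at 0.06 ± 0.11 and 0.04 ± 0.17.

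Cytosine methylation was represented by 1 writer and 1 eraser. DNMT3A, a de novo DNA methyltransferase, had 89.1, 81.6, 88.6 and 134 CPM in the FL and 71.3, 81.1, 107 and 77.6 CPM in the LL. FL replicate 4 stood far above the other FL birds, and LL replicate 3 above the other LL birds. The log2 fold change was 0.22 ± 0.18 (SE), and edgeR gave an adjusted p of 0.646, and without FL replicate 4 it was 0.03. The part of the muscle transcripts of that library in these values was not tested. TET2, which oxidises methylcytosine, had 21.3 to 27.0 CPM in the FL and 21.3 to 25.9 CPM in the LL, a log2 fold change of -0.03 ± 0.12 (SE). TET1, which the rule left out through its ID, stood at -0.46 ± 0.17 (SE) with overlapping birds and an edgeR adjusted p of 0.267.

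SWI/SNF complexes slide and evict nucleosomes, and 10 of the genes encode their subunits (SMARCA2, SMARCC1, SMARCD1, SMARCD2, SMARCD3, ARID1A, ARID1B, ARID2, BRD7 and BRD9, a grouping made after the values were seen). Each of the 10 had a negative estimate in the main fit, from -0.48 to -0.01 with a median of -0.11, but BRD7, BRD9 and SMARCC1 turned positive in 5, 5 and 4 alternatives. The higher mean was in the LL for 67.6% of the 74 chromatin genes and 49.5% of all genes tested. An unadjusted p under 0.05 with the higher mean in the LL was given to 3 of the 10. It was given to 13.5% of the 74 and 6.62% of all genes tested. Since the 10 were grouped after their values were seen, these shares give no support for a difference particular to SWI/SNF. Another 5 SWI/SNF genes were tested, from a list without the genes named in the gene lists of the paper. Of these 5, 3 were higher in the LL and 2 in the FL, with a median of -0.06. ARID1B (chr3:53281355-53381078), a DNA-binding subunit of the BAF form, had 102, 106, 105 and 115 CPM in the FL birds and 135, 136, 131 and 121 CPM in the LL birds. The lines did not overlap, and ARID1B had a log2 fold change of -0.29 ± 0.09 (SE), and edgeR gave an adjusted p of 0.192. ARID2 (chr1:32543052-32649208), the corresponding subunit of the PBAF form, had 50.03, 50.5, 51.8 and 50.3 CPM in the FL and 69.8, 62.9, 57.2 and 59.9 CPM in the LL. The FL birds were nearly equal and all LL birds were above them, with a log2 fold change of -0.30 ± 0.09 (SE), and edgeR gave an adjusted p of 0.193. ARID1A, the alternative to ARID1B in the same position, stood at -0.14 ± 0.10 with overlapping birds.

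SMARCD3 (BAF60C; chr2:30671-115037), an accessory SWI/SNF subunit known from heart and skeletal muscle, had the largest estimate of the remodellers. Its level was 16.7, 19.4, 15.6 and 23.7 CPM in FL replicates 1 to 4 and 32.2, 22.9, 26.6 and 23.3 CPM in LL replicates 1 to 4. FL replicate 4, the library with muscle transcripts, was the only FL bird within the LL range. The log2 fold change was -0.48 ± 0.17 (SE), and edgeR gave an adjusted p of 0.248. Without that bird the log2 fold change was -0.62 (edgeR adjusted p = 0.123), the largest difference among the 8 fits that left out 1 bird. Those fits ran from -0.62 to -0.36, with edgeR adjusted p values of 0.123 to 0.464. The part of muscle transcripts in the values of SMARCD3 was not tested. The related SMARCD1 and SMARCD2 stood at -0.08 and -0.13, and the ATPase SMARCA2 (BRM), with 318 to 332 CPM in the FL and 308 to 373 CPM in the LL, at -0.08 ± 0.09. SMARCA1, an ATPase of the ISWI type, stood at -0.14 and SMARCC1 at -0.02. Outside these complexes, SMARCAD1 had 17.2 to 23.98 CPM in the FL and 15.02 to 18.4 CPM in the LL, a log2 fold change of 0.16 ± 0.15 (SE), and SMARCAL1 stood at 0.01. ARID3B and ARID5A, which bind nucleic acids but are no SWI/SNF subunits, stood at -0.17 and 0.15.

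Of the 7 CHD remodellers, 5 had the higher mean in the LL and the median log2 fold change was -0.12. CHD9 (chr11:5109089-5192246), a remodeller that is also known as a coactivator of PPAR receptors, had 67.7, 75.9, 82.6 and 65.1 CPM in the FL birds and 100.4, 88.6, 85.8 and 88.5 CPM in the LL birds. FL replicate 3 came close to the lowest LL bird but no birds overlapped, and the log2 fold change was -0.32 ± 0.10 (SE), and edgeR gave an adjusted p of 0.218. CHD4, the ATPase of the NuRD corepressor, was nearly the same in both lines, at 207 ± 9.97 CPM in the FL and 211 ± 12.1 CPM in the LL. Its log2 fold change was -0.03, with a 95% interval from -0.23 to 0.17. CHD2, CHD6 and CHD7 stood at -0.22, -0.21 and -0.12 and CHD1L and CHD5 at 0.08 and 0.05.

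Among the BRD genes, BRD7 and BRD9 stood at -0.01 on the log2 scale, with overlapping birds. BRD1 (chr1:20002618-20064942), a scaffold of histone H3 acetyltransferase complexes, had 56.0, 65.4, 63.5 and 51.6 CPM in the FL and 80.9, 68.2, 69.5 and 65.9 CPM in the LL. The birds were separated by a narrow gap between FL replicate 2 and LL replicate 4, and the log2 fold change was -0.27 ± 0.11 (SE), and edgeR gave an adjusted p of 0.322. BRD3 (chr17:7841065-7872005), of the BET proteins that recruit the elongation machinery to acetylated chromatin, had 21.6, 20.6, 26.2 and 24.4 CPM in the FL and 26.8, 24.8, 37.9 and 28.6 CPM in the LL. Only LL replicate 2 lay within the FL range and LL replicate 3 was the highest bird, with a log2 fold change of -0.35 ± 0.15 (SE), and edgeR gave an adjusted p of 0.363.

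**Figure D4:**
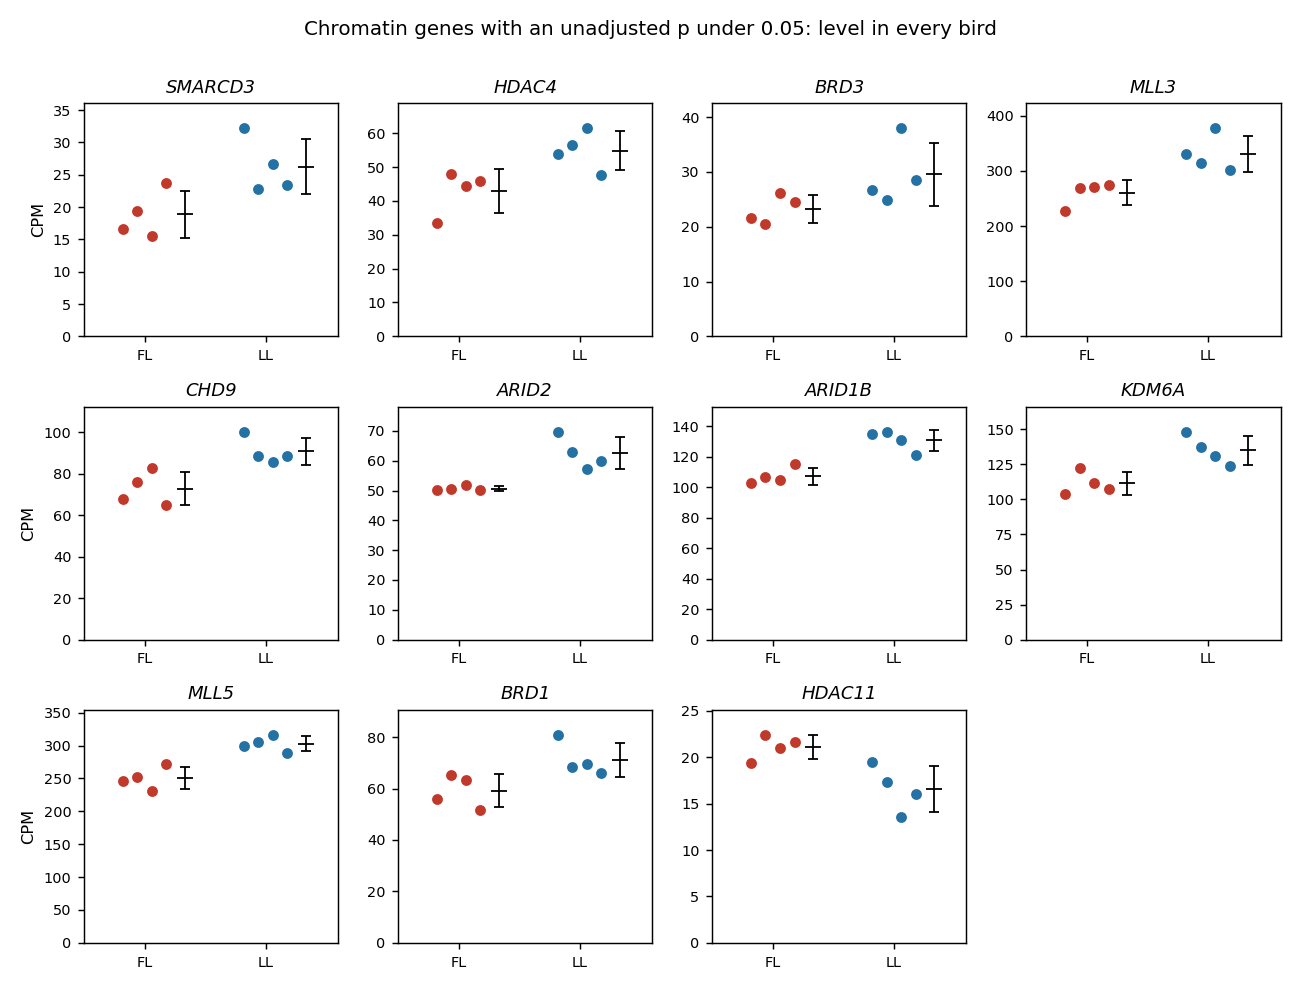
Level of the 11 chromatin genes with an unadjusted p under 0.05 in every bird (CPM, vertical axes from 0), FL birds in red and LL birds in blue in the order of replicates 1 to 4, with the mean and SD of 4 birds in black. In 10 panels the LL lies higher and in that of HDAC11 the FL does. No adjusted p of edgeR was under 0.192.

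MLL fusion partners are named for translocations in human leukaemia and do not all belong to the same family. MLLT3 (AF9), a reader of acylated lysines in elongation complexes, had 7.63, 12.1, 12.5 and 7.71 CPM in the FL and 6.26, 8.33, 8.14 and 8.84 CPM in the LL. FL replicates 2 and 3 were above all other birds, and the log2 fold change was 0.32 ± 0.22 (SE), and edgeR gave an adjusted p of 0.579. MLLT1 (ENL), a reader of the same kind, stood at -0.18 ± 0.13. MLLT10 (AF10), a cofactor of the H3 lysine 79 methyltransferase DOT1L, had 30.6 to 38.7 CPM in the FL and 38.7 to 39.6 CPM in the lowest 3 LL birds, with LL replicate 2 at 44.5 CPM, and an adjusted p of 0.403. MLLT4 (afadin), a protein of cell junctions rather than of chromatin, had 104 to 130.3 CPM in the FL and 94.6 to 126 CPM in the LL.

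Partners of these proteins were taken from lists of known complex subunits and enzymes, and 65 of 185 listed genes were kept and tested. Listed genes that the paper names among its differing, highly expressed or lipid genes were left out, KAT6A (MYST3) and ARID4A among them. The genes kept therefore do not stand for the whole lists. Of the 65, 43 were higher in the LL (66.2%, against 49.5% of all genes tested), with a median log2 fold change of -0.08. None of the 65 was a DE gene in edgeR, against 0.366% of all genes tested. An unadjusted p under 0.05 was given to 6.62% of all genes with the higher mean in the LL and to 6.49% with it in the FL. Few calls among the 65 say nothing about partners, since genes the paper called differing in these same data had been left out. The only 1 of the 65 with an unadjusted p under 0.05 in edgeR was JARID1A (KDM5A), a demethylase of H3 lysine 4. Its log2 fold change was -0.22 ± 0.09 (SE, adjusted p = 0.344), and its birds did not overlap. In each list the lowest p was taken among the genes kept, so without ARID4A for the deacetylase corepressors. Among chromatin remodelling partners the lowest p in each list belonged to BAZ2B of ISWI (-0.21), RBBP7 of NuRD (-0.51), ATRX of the other SNF2 ATPases (-0.21) and ACTL6A of SWI/SNF (0.13). Among repressors it belonged to EED of Polycomb complex 2 (-0.20), PCGF3 of Polycomb complex 1 (-0.24), TBL1X of the deacetylase corepressors (-0.20) and TRIM28 of the heterochromatin list (-0.17). For the other lists it was NCOA6 of the MLL complexes (-0.15), PHF16 of the acetyltransferase complexes (-0.22), SMYD5 of the lysine methyltransferases (0.22) and GADD45B of DNA demethylation (0.83). These values are log2 fold changes with unadjusted p values above 0.05.

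The chromatin genes are long, with a median genomic span of 29738 bases against 13440 for all genes tested, and span went with the direction of the difference over the whole table. When the genes were divided into 5 bins of equal size by span, the median log2 fold change of all genes was 0.07, 0.04, 0.01, -0.04 and -0.07 from the shortest to the longest. The share of all genes with the higher mean in the LL was 39.5% in the bin of the shortest genes and 61.8% in that of the longest. The chromatin genes numbered 5, 6, 9, 23 and 31 in these bins, and their medians were -0.05, 0.10, -0.13, -0.09 and -0.17. In the 3 bins of the longest genes the median of the chromatin genes was thus below that of all genes of like span, and the part of span in the tilt towards the LL was not tested beyond these values.

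**Figure D5:**
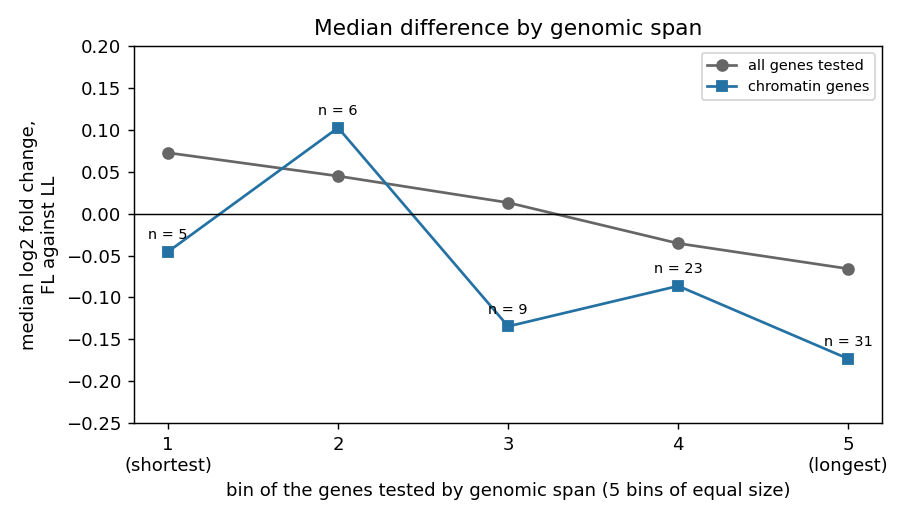
Median log2 fold change (FL/LL, vertical axis) by bin of genomic span (5 bins of equal size) from the shortest to the longest genes (horizontal axis), for all 11187 genes tested (grey) and for the chromatin genes (blue, with their number). The grey line passes from 0.07 to -0.07, and the blue line lies below it except in bin 2.

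The median coefficient of variation of CPM within a line was 12.4% for the 74 genes and 16.6% for all genes tested. In 5 bins of mean level, from the lowest to the highest, the values were 17.3% against 30.6% (5 of the genes), 19.3% against 19.2% (12), 12.6% against 14.7% (16), 11.5% against 12.3% (22) and 11.04% against 11.9% (19). KAT6B, PRMT8 and PRDM9 varied most, with 29.5, 36.5 and 44.7%. The genes lie on 25 chromosomes or linkage groups, 4 of them on Z, and the deposited regions of 18 overlap another feature, so that counts at shared bases are uncertain for them.

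Of the 11 genes with an unadjusted p under 0.05, 6 (ARID1B, ARID2, CHD9, KDM6A, MLL3 and MLL5) had such a p in all 8 fits that left out 1 bird. ARID1B, CHD9, MLL3 and MLL5 had it in the 10 other alternatives too, among them that with the runs entered as replicates. Without FL replicate 1 the count with the higher mean in the LL was 6 in place of 10, and without FL replicate 4 it was 12. HDAC11 had such a p in 3 of the 8 fits. These 11 genes were chosen for their p in the fit of all birds, and each fit without 1 bird reuses the others. Keeping such a p is therefore no independent test. The share of all genes that kept it was not worked out. None of the 11 had an adjusted p under 0.05 in the main fit. The summed level of 7 mesothelial and epithelial genes was 39.2 to 61.1 CPM in the FL and 50.7 to 136 CPM in the LL. All 7 had the higher mean in the LL, with log2 fold changes from -3.35 to -0.17 and a median of -2.51. Of the 7, 5 had an unadjusted p under 0.05 in edgeR, against 6.62% of all genes tested with the higher mean in the LL. None of the 7 was a DE gene. The sum of 5 fibroblast and preadipocyte genes, most of it COL3A1, was 25196 to 39983 CPM in the FL and 35873 to 47148 CPM in the LL. All 5 had the higher mean in the LL, with a median log2 fold change of -0.13. Only 1 of the 5, PDGFRA, had an unadjusted p under 0.05 in edgeR, and only its birds did not overlap. PDGFRA, a receptor that marks preadipocytes, was picked after its values were seen. It had 100.4 to 159 CPM in the FL and 184 to 226 CPM in the LL. Its log2 fold change was -0.64 ± 0.14 (SE), the largest of the 5, with an edgeR adjusted p of 0.106. Sums of adipocyte, leukocyte, endothelial and dividing cell markers overlapped between the lines, and the part of cell makeup in these results was not tested.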

How the data were processed

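RNA of abdominal fat from 4 FL and 4 LL cockerels was sequenced in 24 runs, 3 per bird. The authors processed reads with CASAVA 1.8.2, mapped trimmed pairs in CLC Genomics Workbench to chicken build 2.1 with Ensembl genes and 200 flanking bases on each side, and left out reads with several places. The deposited counts are those of unique exon reads for each gene in each run and were not normalized, and the strand of counting is not given in the sources used here. Of the deposited table, 24 normalized columns of single runs, 4 columns of line means and 3 columns of the authors' own comparison (fold change, p and FDR) were not used. Lines were taken from the titles, since the description field of every LL sample names the FL. Runs of a bird repeat 1 library (runs 2 and 3 differed by no more than sampling noise, with chi-square per degree of freedom of 0.98 to 1.02, whereas run 1 differed from them beyond it, with 1.96 to 10.7) and were summed, which makes 4 birds against 4. The kind of lane follows the account of the paper. There the first run had 1 library per lane for FL replicate 4 and LL replicate 3 and 4 per lane for the others. By that account, the libraries given a lane each were those whose earlier data had low quality scores and were left out. The labels order the schemes otherwise, so that the alternative with the lane term rests on the account of the paper.

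Counts per bird were filtered with filterByExpr, scaled with TMM and tested with glmQLFit and glmQLFTest of edgeR 4.0.16 in R 4.3.3. P-values were adjusted by the Benjamini-Hochberg method over the 11187 genes tested, and every adjusted p is from this test unless named otherwise. SE is the absolute log2 fold change divided by the root of F. Totals per bird are given with the results, and where no read was found the limit is 3 counts (0.237 to 0.686 CPM in these birds). Reads carry no molecular identifiers, so that this limit covers counting error only. Genes named in the text are the 10 with the lowest p in each direction and those in counts of 5 or fewer. In each class that with the highest mean and that with the largest difference are named too. In each partner list it is that with the lowest p among the genes kept. Others are given by range or were picked after their values were seen. The genes, the lists and the tests were chosen with earlier results of these data known. Alternatives were DESeq2 1.42.0, total counts without TMM, no filter on low counts or a minimum of 10 in every bird, robust=TRUE, runs 2 and 3 or run 1 only, the 24 runs as replicates, the kind of lane as a term, a replicate block, other fold thresholds and each bird left out. The script was tested on simulated data. Figures were drawn with matplotlib 3.10.9. Results of some genes are not reported here.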

Additional observations from a re-analysis of the deposited data

Results flagged for a closer look

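In the 32 genes named by the rule, 64 groups of 4 birds were looked at for a bird that stands far from the other 3 by Dixon's 95% critical value for 4 samples, which chance passes in about 1 in 20 groups. There were 3 such birds. MLL3 was 227 CPM in FL replicate 1 and 269.8 to 274 CPM in the other FL birds. SIRT3 was 43.6 CPM in LL replicate 2 and 34.6 to 35.2 CPM in the other LL birds. DNMT3A was 134 CPM in FL replicate 4, the library with muscle transcripts, and 81.6 to 89.1 CPM in the other FL birds.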

How the results depend on the processing

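No chromatin gene was a DE gene in any alternative except with the 24 runs as replicates, where 11 were. The count of DE genes over all genes was 41, and it was 306 with DESeq2, 27 with no filter on low counts, 133 with runs 2 and 3 only, 1 with run 1 only, 1327 with the 24 runs as replicates, 91 with the kind of lane as a term and 8 with the replicate block, while leaving out each bird in turn gave 2 (without FL replicate 3 or LL replicate 2) to 65 (without FL replicate 4). With total counts in place of TMM factors the DE genes were 26 higher in the LL and 20 in the FL, against 18 and 23. The median of all genes moved to -0.06 and that of the chromatin genes to -0.16. In that fit 56 of 74 chromatin genes were higher in the LL (75.7%, against 59.4% of all genes tested). Chromatin genes with an unadjusted p under 0.05 and the higher mean in the LL numbered 10, and 19 with the 24 runs as replicates, with 6 to 12 when each bird was left out in turn. Those higher in the FL numbered 1, and 0 with total counts, with run 1 only and with the replicate block, 2 with the lane term, and 0 to 2 when a bird was left out. The median log2 fold change stayed between -0.11 and -0.07 when each bird was left out. Of the 74 genes, 55 kept their direction in every alternative and 19 did not, 4 of the 32 chosen by the rule and 15 others (BRD7, BRD9, CHD5, HDAC8, PRDM9, PRDM15, PRDM16, PRMT3, SETD2, SETD6, SETDB1, SETDB2, SIRT5, SMARCAL1 and SMARCC1). CHD4 was 0.0094 with runs 2 and 3 only and -0.056 to 0.0049 when each bird was left out, MLLT4 -0.016 with total counts and -0.036 to 0.10, TET2 0.013 with run 1 only and -0.11 to 0.0102, and KDM5B -0.16 to 0.046. Nothing in the labels ties birds of the same number in both lines to each other. The correlations of their deviations were 0.22, -0.07, -0.11 and -0.06, and 1 of the 4 numbers correlated best with itself. So few values cannot decide whether such birds share more than a number. With the replicate block no chromatin gene was a DE gene, as in the main fit. BRD1 and HDAC11 then had no unadjusted p under 0.05, whereas PRMT8 did.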
